A study of Mus musculus with 6 samples.

Results

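Homeobox transcription factors that give the pineal gland its identity were followed in newborn mice that lack Neurod1, a basic helix-loop-helix factor of neurons, endocrine cells and photoreceptors. The group held 10 genes, Crx, Otx2, Pax6, Lhx4, Lhx9, Rax, Bsx, Isl1, Six3 and Six6, of 18193 genes named on the array. Probe sets were taken where the platform annotation assigned them to 1 gene, which gave 21 probe sets for 9 of the 10 genes. No probe set was assigned to Bsx alone, and Bsx was not analysed here. Where a gene had several, the brightest over the 6 arrays stood for it and the others are shown beside it. Of the 9 genes, 7 lay above the filter on dim probe sets (set on the mean log2 value, at a level that corresponds to a signal of 105) and were tested, while Rax and Six6 lay below it and are described without a test. The knockout group was 3 pools of pineal glands from homozygous Neurod1 knockout mice, and the wildtype group 3 pools from wildtype mice. Both groups were of strain 129 at postnatal day 0, housed in a cycle of 12 h light and 12 h dark, with daytime dissection, with 3 glands in each pool and a single round of RNA amplification before labelling. The removed part of Neurod1 is not described, so its probe sets can check the labels only as far as they read into that part. Every pool was run on 1 Affymetrix array.

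Homeobox factors bind DNA through a homeodomain and act in sequence as the pineal gland forms. In the mouse, Rax, Six3, Six6 and Pax6 mark the early field of eye and diencephalon, and Otx2 is needed before the cells that form pinealocytes and photoreceptors can be specified. Otx2 activates Crx, and Crx together with Otx2 drives genes of melatonin synthesis and of the photoreceptor apparatus that pinealocytes share with retinal rods and cones. Lhx4, Lhx9 and Isl1 belong to the LIM class, whose members work in complexes with the adaptor Ldb1, and mice without Lhx9 form a small pineal gland.

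The labels held for the deleted gene. Neurod1 (1426413_at) had signals of 390, 524 and 123 in knockout pools 1, 2 and 3, against 9027, 9301 and 7519 in wildtype pools 1, 2 and 3, and it fell by 4.67 on the log2 scale (SE 0.45, limma adjusted p = 0.0362). Neurod1 was the 1 gene called among 12797 tested, 0.00781% of them. The call was lost without knockout pool 1 (limma adjusted p = 0.0985), without any one of wildtype pools 1, 2 and 3 (0.621, 0.316 and 0.376), with no offset (0.0737) and with quantile normalization (0.0504). All 10 markers of pineal cells that were fixed for this comparison, Tph1, Aanat and Sag among them, lay above the filter, so the labelled tissue showed its defining transcripts. Their summed signal was 40648, 20941 and 20503 in knockout pools 1 to 3, against 49672, 38086 and 27991 in wildtype pools 1 to 3. Material of adjoining tissue was uneven among single pools. The summed signal of 9 choroid plexus markers was 3202 in knockout pool 3 and 3426 in wildtype pool 1, while it lay at 74207 and 98405 in the remaining knockout pools and at 43344 and 78449 in the remaining wildtype pools. The sum of 9 macrophage markers, by contrast, separated the genotypes, at 11405 to 14966 in knockout and 8301 to 9418 in wildtype. Aif1 of that list lay below the filter. Of the 8 tested, 8 had higher knockout means, beside 6808 of all 12797 tested genes. Knockout lay above wildtype without overlap for 3 of the 8, beside 5.77% of all tested genes. Among the 8, 0 were called, beside 0.00781%. Habenula and thalamus markers summed to 2302 to 5458 in knockout and 2048 to 2842 in wildtype, with 4 of 7 genes below the filter. Ependyma and subcommissural organ markers summed to 460.2 to 788 in knockout and 449 to 828 in wildtype, with 5 of 6 genes below it. The part of macrophages in the differences below was not tested. Pools of one number carry the same date in the labels, so differences are also given within pool numbers.

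None of the 7 tested homeobox factors passed the threshold in limma, either after adjustment (0 of 7, beside 0.00781% of all genes) or at an unadjusted p under 0.05 (0 of 7, beside 3.34% of all genes). Each had an adjusted p of 0.998. Knockout means on the log2 scale were lower for Crx, Otx2, Pax6, Lhx9 and Isl1 and higher for Lhx4 and Six3, that is 5 of 7 lower, beside 46.8% of all tested genes. The median log2 difference was −0.40 over the 7 factors and 0.03 over all tested genes. The knockout and wildtype pools did not overlap, with knockout below, for 3 of the 7, Otx2, Pax6 and Lhx9, beside 4.33% of all tested genes. Knockout lay above wildtype without overlap for 0 of the 7, beside 5.77%. Crx, Otx2, Pax6 and Lhx9 were lower in knockout within all 3 pool numbers, which held for 15.4% of all tested genes. The factors were chosen with earlier results of these arrays known, so these counts describe the 7 genes and are no test. In a whole gland, fewer cells of a type and less RNA per cell cannot be told apart.

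**Figure D1:**
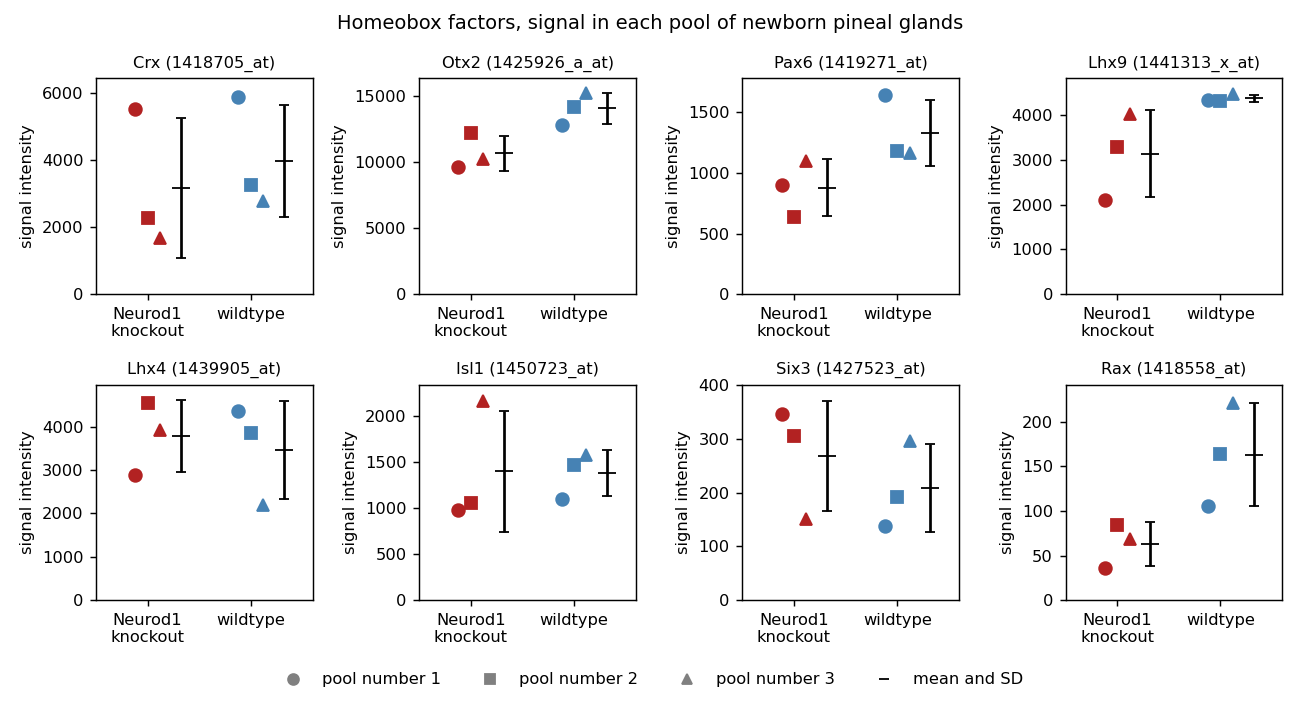
Signal intensity (linear vertical axis from 0) of 8 homeobox factors in each Neurod1 knockout pool (red, left) and wildtype pool (blue, right), with marker shapes for pool numbers and the mean ± SD of 3 pools in black. All knockout points lie below all wildtype points for Otx2, Pax6, Lhx9 and Rax, and the groups overlap for the other 4.

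Otx2, the factor at the head of the cascade, was among the 3 without overlap and had the smallest standard error of the 7. Its single probe set, 1425926_a_at, had signals of 9618, 12144 and 10194 in knockout pools 1 to 3, against 12786, 14138 and 15178 in wildtype pools 1 to 3. The highest knockout pool thus stayed just below the lowest wildtype pool. The means were 10652 ± 1324 in knockout and 14034 ± 1199 in wildtype (SD, n = 3 each), a ratio of 0.759. On the log2 scale knockout differed by −0.40 (SE 0.28), with a 95% interval from −1.04 to 0.24, and with the pool number as a block the interval ran from −0.99 to 0.19. Within pool numbers 1, 2 and 3 it was −0.41, −0.22 and −0.57.

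Otx2 is also known from the epithelium of the choroid plexus and from pigment cells. Within pool number 1, choroid plexus markers summed to 98405 in knockout and 3426 in wildtype, and the Otx2 difference there was −0.41. Within number 3 the marker sums ran the other way, at 3202 in knockout and 78449 in wildtype, and the Otx2 difference there was the widest of the 3. Ttr, the transthyretin gene, made up most of the choroid plexus sum in the 4 pools where that sum was high, with 87464, 58637 and 685 in knockout pools 1 to 3 and 898, 38903 and 60484 in wildtype pools 1 to 3. Kl of that list lay below the filter. Pigment cell markers summed to between 31116 and 38657 in knockout pools and between 13848 and 31271 in wildtype pools. Most of that sum was Mitf, and Pmel, Mlana and Rpe65 lay below the filter. The parts of choroid plexus and of pigment cells in the Otx2 difference were not tested.

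Crx, the cone-rod homeobox factor, varied more between pools of one genotype than between genotypes. Probe set 1418705_at had 5549, 2279 and 1681 in knockout pools 1 to 3, against 5902, 3275 and 2772 in wildtype pools 1 to 3. Both pools numbered 1 were high, so the groups overlapped widely. The means were 3169.8 ± 2082 in knockout and 3983 ± 1680.4 in wildtype (SD, n = 3 each), and the log2 difference was −0.44 (SE 0.49, 95% interval −1.54 to 0.66). Within pool numbers it was −0.09, −0.52 and −0.71. With the pool number as a block the 95% interval ran from −1.01 to 0.14 (SE 0.25). The second Crx probe set, 1449185_at, had 852, 499.5 and 507 in knockout pools 1 to 3 and 879, 782 and 769.7 in wildtype pools 1 to 3. It gave a difference of −0.41, with −0.04, −0.61 and −0.57 within numbers, so both probe sets placed nearly no difference in number 1 and a lower knockout value in numbers 2 and 3. Leaving out single pools moved the Crx difference between −0.93 without knockout pool 1 (limma adjusted p = 0.538) and −0.08 without knockout pool 3 (limma adjusted p = 0.990), and over all alternatives its adjusted p lay between 0.538 and 1.00.

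The pools ranked by Crx in the order that the summed pineal markers gave, from wildtype pool 1, knockout pool 1, wildtype pool 2 and wildtype pool 3 to knockout pool 2 and knockout pool 3. The marker sum itself differed by −0.29, −0.86 and −0.45 on the log2 scale within numbers 1, 2 and 3, knockout minus wildtype. As a ratio to that sum, Crx differed by 0.20, 0.34 and −0.27 within the same numbers. Otx2 as a ratio to the sum differed by −0.12, 0.64 and −0.13. Pax6 differed by −0.58, −0.04 and 0.37 on that scale, and Lhx9 by −0.75, 0.47 and 0.30. Of the 10 pineal markers 9 had lower knockout means, and 6 are also in the list of genes downstream of Crx and Otx2 used here, so such a ratio can cancel a lower level of the factors themselves and decides nothing about them.

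**Figure D2:**
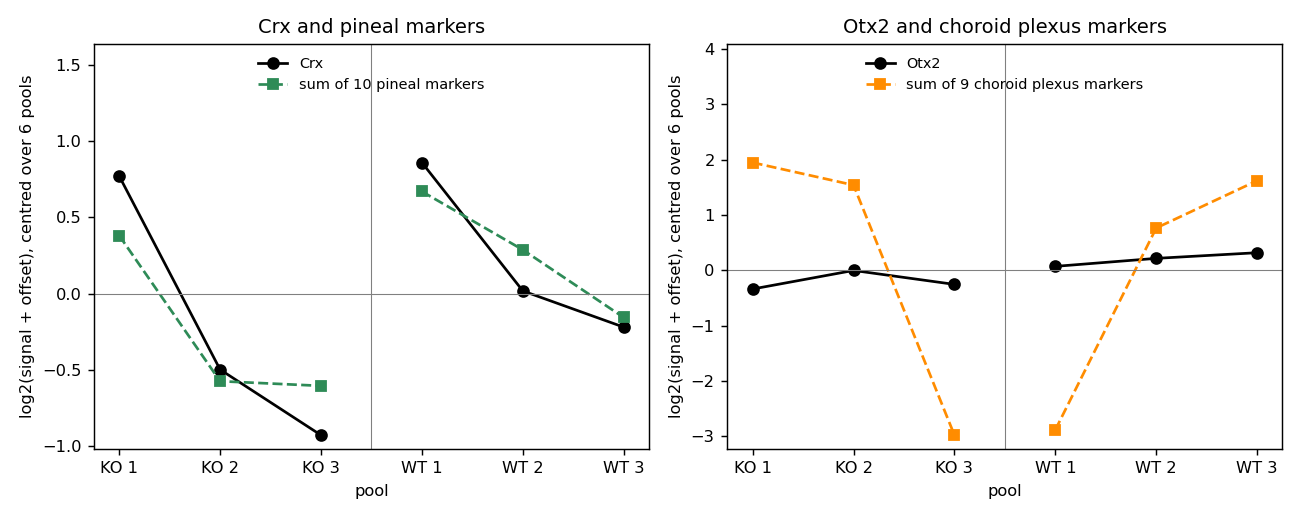
Log2(signal + 38.6) centred on the mean of the 6 pools, for Crx with the sum of 10 pineal markers (left) and for Otx2 with the sum of 9 choroid plexus markers (right), knockout pools 1 to 3 before wildtype pools 1 to 3. Crx and the pineal markers rank the pools alike. Otx2 lies between −0.34 and 0.32, and the choroid plexus markers span several log2 units.

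The stretch before the Crx start shows the recognition letters of its own family, and it is printed beside that of Isl1 because both hold the letters GGATTA or, read on the other strand, TAATCC, which Otx2 and Crx are known to bind. Sequences are from RefSeq for assembly GRCm38.p6, cover 250 bases before the annotated start and run 5′ to 3′ on the minus strand for both genes. Capitals mark GGATTA, its reverse complement and the E-box CAGCTG, a kind of site that basic helix-loop-helix factors bind. The Crx window is chr7:15879956-15880205 and the Isl1 window chr13:116309689-116309938.
Crx: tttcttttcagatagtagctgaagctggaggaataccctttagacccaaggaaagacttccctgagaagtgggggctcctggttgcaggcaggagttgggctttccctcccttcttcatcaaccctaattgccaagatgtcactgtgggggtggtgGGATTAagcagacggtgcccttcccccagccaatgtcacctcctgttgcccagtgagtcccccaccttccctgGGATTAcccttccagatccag
Isl1: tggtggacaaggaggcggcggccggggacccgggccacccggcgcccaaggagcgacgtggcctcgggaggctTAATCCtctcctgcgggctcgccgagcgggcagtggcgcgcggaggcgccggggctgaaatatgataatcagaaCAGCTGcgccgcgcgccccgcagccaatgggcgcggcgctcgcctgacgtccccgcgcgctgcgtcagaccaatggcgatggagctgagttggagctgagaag
In Crx the letters GGATTA began 94 and 21 bases before the start, and in Isl1 their reverse complement began at 177 and CAGCTG at 103. The search covered 13 such windows for 9 of the 10 factors, and Rax was left out of it. GGATTA was in 3 of the 13 windows, of the genes Crx, Isl1 and Otx2, beside 6.25% of all 32851 RefSeq windows. The E-box CAGATG, which on the other strand reads CATCTG, and the E-box CAGCTG, which reads alike on both strands, were in 1 and 2 of the 13 windows, beside 14.4% and 13.0% of all windows. The wider form CANNTG, which includes both, was in 7 of the 13, beside 66.2%. The Crx window held none of these E-boxes. Such matches describe letters and do not show that a factor binds there.

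Pax6, a paired-domain and homeodomain factor without which mice form no pineal gland, had the most negative log2 difference of the 7. Probe set 1419271_at had 900.2, 633 and 1101 in knockout pools 1 to 3, against 1643, 1183 and 1163 in wildtype pools 1 to 3. Knockout pool 3 lay just below the lowest wildtype pool, and knockout pool 2 lay furthest down. The means were 878 ± 235 in knockout and 1329.7 ± 272 in wildtype (SD, n = 3 each), a ratio of 0.660. The log2 difference was −0.59 (SE 0.31, 95% interval −1.29 to 0.10), and within pool numbers it was −0.84, −0.86 and −0.08, so number 3 contributed little. With the pool number as a block the 95% interval ran from −1.19 to 0.001. The Pax6 difference narrowed to −0.39 without knockout pool 2 and widened to −0.77 without knockout pool 3. A second Pax6 probe set above the filter, 1437816_at, was dim, with 36.2, 159 and 144 in knockout and 78.3, 132 and 286 in wildtype pools. Its difference of −0.42 was positive within number 2, at 0.21. The other 3 Pax6 probe sets lay below the filter. Their log2 differences were −0.64 (1452526_a_at), 0.20 (1456342_at) and −0.22 (1425960_s_at).

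Pax6 and the engrailed gene En2, which marks midbrain and cerebellum next to the gland, both had their highest signal in wildtype pool 1. En2 had 249, 715 and 695 in knockout pools 1 to 3, against 3390 in wildtype pool 1, 1556 in wildtype pool 2 and 1317 in wildtype pool 3. Its log2 difference was −1.85 (SE 0.48, limma adjusted p = 0.998). The midbrain and cerebellum list as a whole summed to between 5014 and 16852 in knockout and between 11073 and 14417 in wildtype, most of it from Foxp2, with En1, Barhl1 and Pax7 below the filter. The part of such tissue in the Pax6 difference was not tested.

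Lhx9 gave different answers from different probe sets, which separated into pairs. The brightest, 1441313_x_at, had 2108, 3298 and 4025 in knockout pools 1 to 3, against 4342, 4327 and 4478 in wildtype pools 1 to 3. Wildtype pools were nearly equal while knockout pools spread over a wide range, all below wildtype. The means were 3144 ± 968 in knockout and 4382 ± 83.7 in wildtype (SD, n = 3 each), a log2 difference of −0.52 (SE 0.33, 95% interval −1.26 to 0.22), with −1.03, −0.39 and −0.15 within numbers. With the pool number as a block the 95% interval ran from −1.15 to 0.10. Without knockout pool 1 the Lhx9 difference was −0.26. Probe set 1429905_at, with 1209, 2677 and 2966 in knockout and 3270.2, 4251 and 3386 in wildtype pools, followed the same order of knockout pools and had no overlap either (log2 difference −0.75). In contrast, 1419324_at was highest in knockout pool 1, with 2507, 1489 and 1259 in knockout and 2306, 2261 and 1493 in wildtype pools (log2 difference −0.24). The fourth, 1431598_a_at, also had a higher knockout value within number 1, by 0.25. Hence the 2 probe sets that placed knockout pool 1 lowest and the 2 that placed it above its wildtype partner disagreed on that pool, while all 4 had lower knockout values within numbers 2 and 3.

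Lhx4, a LIM factor of pineal cells, retina and pituitary, was the 1 factor whose 2 probe sets gave opposite directions. The brighter, 1439905_at, had 2893, 4534 and 3912 in knockout pools 1 to 3, against 4346, 3862 and 2189 in wildtype pools 1 to 3. Its groups overlapped across nearly their whole range, and the log2 difference of 0.16 (SE 0.36, 95% interval −0.66 to 0.97) was −0.58, 0.23 and 0.83 within numbers. The dimmer, 1421483_at, had 387, 275 and 243 in knockout and 494, 466 and 392 in wildtype pools. There the highest knockout pool lay below the lowest wildtype pool, the log2 difference was −0.54, and it was −0.32, −0.69 and −0.61 within numbers. With every probe set fitted as a feature of its own, the limma adjusted p of 1421483_at was 0.999. No direction for Lhx4 is therefore given.

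Isl1, a LIM factor of motor neurons, sensory neurons and endocrine cells, did not separate the groups. Probe set 1450723_at had 975, 1061 and 2157 in knockout pools 1 to 3, against 1101, 1471 and 1574 in wildtype pools 1 to 3. Knockout pool 3 was the highest of the 6 pools and the other knockout pools were the lowest. The log2 difference was −0.06 (SE 0.36, 95% interval −0.88 to 0.76), with −0.17, −0.46 and 0.45 within numbers. The second Isl1 probe set, 1422720_at, gave −0.33, with 0.23, −0.84 and −0.38 within numbers, so the 2 probe sets differed in sign within numbers 1 and 3. Markers of peripheral neurons, another source of Isl1, summed to between 702 and 978 in knockout and between 664 and 997 in wildtype pools over 6 genes, of which Phox2a and Avil lay below the filter.

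Over the 14 probe sets of the factors above the filter, 12 had a lower and 2 a higher knockout mean on the log2 scale, and 5 had knockout below wildtype without overlap, beside 48.9% lower and 4.72% below without overlap over all probe sets above the filter. Probe sets of 1 gene are not independent. Of 5 factors with at least 2 probe sets above the filter, Lhx4 was the 1 with opposite signs for its 2 brightest, a share of 20% beside 37.2% of 5484 genes with 2 such probe sets.

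**Figure D3:**
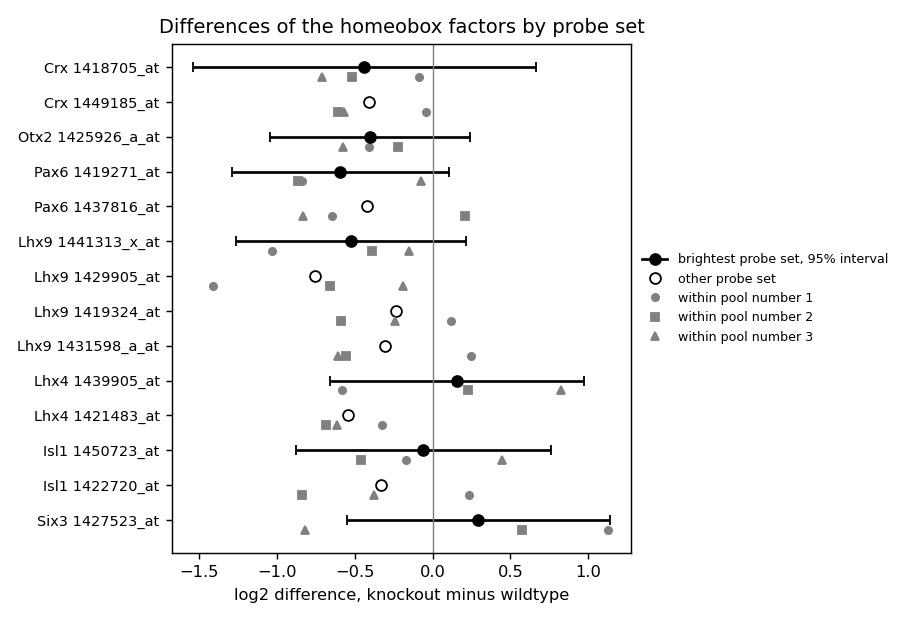
Log2 difference, knockout minus wildtype, of each probe set above the filter, with filled points and 95% intervals for the brightest probe set of a gene, open points for the others, and small grey markers for the difference within each pool number. Every interval includes 0, and most points lie to the left of it.

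Rax, the retina and anterior neural fold factor of the early eye and pineal field, lay below the filter by its mean log2 value, with low signals in knockout. Its single probe set, 1418558_at, had 35.8, 84.3 and 68.5 in knockout pools 1 to 3, against 105, 164 and 221 in wildtype pools 1 to 3. All knockout pools lay below all wildtype pools, and the log2 difference was −0.95, −0.72 and −1.28 within numbers. Since Rax was just outside the filter, these values carry no test in the comparison above. When the filter was dropped, Rax differed by −0.98 (SE 0.37, limma adjusted p = 0.998). Signals this close to the offset of 38.6 understate a ratio on that scale, and detection calls were not analysed here.

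Six3 and Six6, homeobox factors of forebrain and eye, showed no separation between genotypes. Six3 (1427523_at) had 346, 305 and 152 in knockout pools 1 to 3, against 137, 192 and 297 in wildtype pools 1 to 3. Its difference changed sign between numbers, at 1.13, 0.57 and −0.82, around a log2 difference of 0.29 (SE 0.37, 95% interval −0.55 to 1.14). The other Six3 probe sets, 1426638_at and 1426637_a_at, lay below the filter, with signals of at most 83.1 in knockout and 76.0 in wildtype pools. Six6 (1419408_at) had signals between 3.4 and 4.7 in knockout and between 4.0 and 5.7 in wildtype pools, below the offset in every pool.

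By their brightest probe sets, the factors fell into different pool patterns. Crx was highest in knockout pool 1 and wildtype pool 1. Otx2 and Lhx9 were lowest in knockout pool 1, Pax6 in knockout pool 2 and Lhx4 in wildtype pool 3. These patterns depended on the probe set. Lhx9 by 1419324_at was highest in knockout pool 1 (2507), and Lhx4 by 1421483_at was lowest in knockout pool 3 (243). As a description over 6 pools, likeness was measured as the root mean square difference of centred log2 values. The genes nearest to Crx, which itself spread by 0.64 about its mean, were Tmem229b (0.042), Coasy (0.066) and Ppil1 (0.075). Tmem229b had 2492, 1017 and 732 in knockout and 2497, 1426 and 1144 in wildtype pools, high in both pools numbered 1 as Crx was. Nearest to Otx2, with a spread of 0.24, were Nusap1 (0.052), Nbeal1 (0.054) and Casd1 (0.070). Nusap1 had 677, 798 and 755 in knockout and 904, 1012 and 1093 in wildtype pools. Nearest to Pax6, with a spread of 0.40, were Wdr36 (0.093), Ung (0.14) and Pde12 (0.15). They were picked from 12797 genes over 6 pools, and nothing is read from them.

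Other homeobox and Pax genes were set beside these factors to show where they differ. Of 52 listed, 27 were tested, at a median of 0.12 against −0.40 for the 7 pineal factors. Knockout means were lower for 10 and higher for 17, beside 46.8% lower over all tested genes. Of the 27, 0 were called, beside 0.00781%. Without overlap, 1 of the 27 (Lhx2) lay below wildtype and 2 lay above it, Lmx1b and Cux2, beside 4.33% and 5.77% of all tested genes. Cux2 is named after its values were seen. Lmx1b, a LIM factor of midbrain and limb, had 334 ± 23.5 in knockout and 193 ± 7.55 in wildtype (SD, n = 3 each), a log2 difference of 0.69 (SE 0.25). Lhx2, the closest relative of Lhx9, had 84.4 ± 36.9 in knockout and 191 ± 49.4 in wildtype (SD, n = 3 each), a difference of −0.92 (SE 0.38). Onecut2 had a difference of −0.81 (SE 0.39). The limma adjusted p was 0.998 for each of them.

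Cofactors of LIM factors and of the Six3 family are the machinery through which Lhx4, Lhx9, Isl1, Six3 and Six6 act. Of 21 listed, 20 were tested, at a median of 0.07. Knockout means were lower for 9 and higher for 11, beside 46.8% lower over all tested genes. Of the 20, 0 were called, beside 0.00781%. Without overlap, 0 of the 20 lay below wildtype and 1 (Lmo3) lay above it, beside 4.33% and 5.77% of all tested genes. Lmo3, a LIM-only protein that competes for Ldb1, had 255, 309 and 574 in knockout pools 1 to 3, against 131, 199.9 and 198 in wildtype pools 1 to 3, without overlap (log2 difference 0.90, SE 0.34, limma adjusted p = 0.998). Dach1, a partner of Eya proteins and of the Six3 family, had 1386 ± 499.7 in knockout and 2456 ± 1042 in wildtype (SD, n = 3 each), a difference of −0.78 (SE 0.39) that was −0.86, −0.61 and −0.88 within numbers. Ssbp4, which stabilises Ldb1 complexes, had a difference of 0.44 (SE 0.31).

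Genes downstream of Crx and Otx2 had 23 of 38 members tested, at a median of −0.47. Knockout means were lower for 17, beside 46.8% of all tested genes, and higher for 6. Among the 23, 0 were called, beside 0.00781%. Without overlap, 3 lay below wildtype and 0 above it, beside 4.33% and 5.77% of all tested genes. The median difference of the list was 0.15 within number 1, −0.66 within number 2 and −0.68 within number 3. The 3 with the smallest p were Gnat2, Mak and Abca4, with log2 differences of −0.88, −0.60 and −1.07. Among 15 tested of 19 non-homeobox factors of the same lineage, 8 had lower and 7 higher knockout means (median −0.04), beside 46.8% lower over all tested genes. Of the 15, 0 were called, beside 0.00781%. Rxrg, Insm1 and Nr2f2 had the smallest p there, with log2 differences of −0.99, −0.92 and 0.65.

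**Figure D4:**
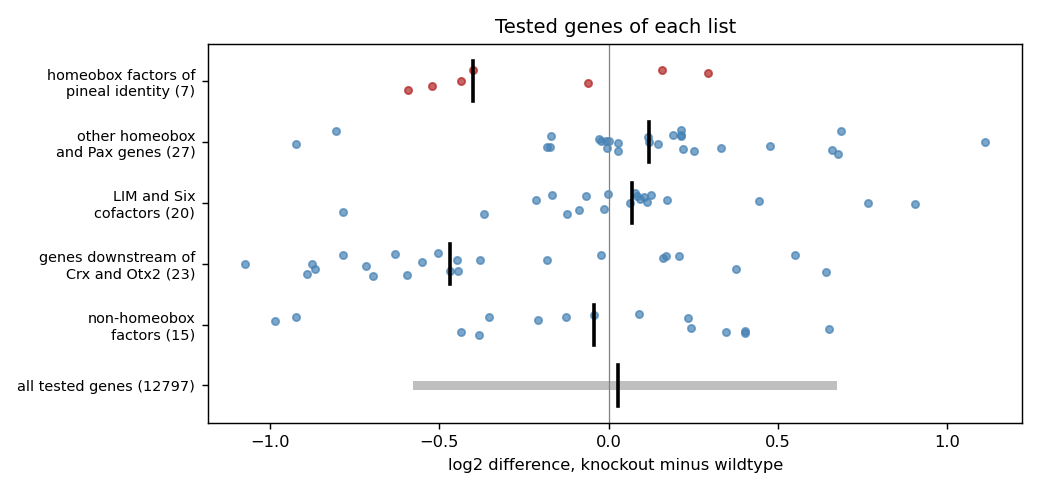
Log2 difference, knockout minus wildtype, of each tested gene (points) in 5 lists, with the list median as a black line, and for all 12797 tested genes the median with the 5th to 95th percentile as a grey bar from −0.57 to 0.66. The medians of the pineal homeobox factors (−0.40) and of the genes downstream of Crx and Otx2 (−0.47) lie left of 0. The bar shows the spread of single genes and is no yardstick for a median.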

How the data were processed

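Whole newborn pineal glands, 3 knockout and 3 wildtype pools, were measured on 1 Affymetrix array each. The deposited values are probe set signal intensities on a linear scale, made with GCOS per the submitters' processing notes; its version and the signal algorithm are not given in the sources here. Deposited 2% trimmed means of 499.5 to 499.96 show that the authors scaled every array to 1 level. The number of arrays limits the precision.

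Values were used as log2(signal + 38.6), the offset being the 20th percentile of the deposited intensities. Probe sets in the lowest 40% by mean log2 value were left out. The remaining 12797 genes, each with its brightest probe set of 34945 that name 1 gene, were fitted in limma 3.58.1 (R 4.3.3, lmFit, eBayes with a trend, two-sided, Benjamini-Hochberg adjusted p under 0.05). SEs and intervals come from this fit. The procedure was tested on simulated data with independent noise and planted differences larger than those of the factors. That test therefore does not cover differences of their size. An exact permutation test of 3 against 3 pools cannot go below p = 0.1 and is not given.

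Pools of one number share a date in the labels, and their deviations from the group means correlated by 0.32, 0.25 and 0.36 over tested genes, so the number was used as a block in an alternative fit. Named genes were Neurod1, the 10 factors, up to 3 genes of smallest p per list, up to 3 nearest in pattern to Crx, Otx2 and Pax6, and En2 and Ttr; other marker genes were named for their share in a list's sum or for lying below the filter. Factors, lists and markers were chosen with earlier results of these data known. Alternatives changed the offset, normalization, filter, probe sets, variance model and pools. Promoter sequences are RefSeq's for GRCm38.p6.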

Additional observations from a re-analysis of the deposited data

How the results depend on the processing

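In 17 alternatives limma called 0 of the homeobox factors, and at most 1 had an unadjusted p under 0.05. With the replicate number as a block, 1 gene was called over the whole table, Neurod1, and 0 factors; the block changed no call. The count over the whole table was 0 with no offset and with quantile normalization, 0 without both pools numbered 1, 2 or 3, and between 0 and 1 when 1 pool was left out. With every probe set as a feature it was 2, both of Neurod1. Crx, Otx2, Pax6 and Lhx9 had lower knockout values in every alternative that gave them one, between −0.93 and −0.08, −0.54 and −0.31, −0.85 and −0.39, and −0.75 and −0.26. The signs of the others did not hold. Lhx4 had −0.54 with its second probe set and −0.18 without both pools numbered 3, and ran from −0.14 to 0.35 over fits that left out 1 pool. Isl1 ran from −0.41 to 0.14 over those fits and had 0.14 without both pools numbered 2. Six3 had −0.12 without both pools numbered 1. Median centring moved the median of all genes from 0.03 to −0.11; Lhx4 and Six3 stayed above 0 there. The causes were not tested. With 3 pools a group and SEs of 0.28 to 0.49 on the log2 scale, the 95% intervals of all 7 tested factors included 0.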
